A study of Arabidopsis thaliana with 18 samples.

Results

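The subject is 41 open reading frames of the Arabidopsis mitochondrial genome, measured by 41 of the 27827 probe sets of an expression array. The array carried 92 mitochondrial loci. Loci on a list of known respiratory, ribosomal and cytochrome c maturation genes were left out, which gave 69 candidates. Of these, 28 were then dropped because their values equalled those of another probe set in every array, 26 of them a probe set of chromosome 2 and 2 of them each other (ATMG00170 and ATMG00620). The rule uses locus numbers and equal values, not the size of a change, although the set was proposed with earlier results of these data known. The remaining loci are named by locus number, since 0 of the 41 matched the reference table of locus tags, and a locus of known product may be among them, with ATMG01275 and ATMG01320 among those in doubt.

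RNA was taken from dry seeds just after harvest. The abci20 mutant was in the Col-0 background, and Col-0 seeds were the other genotype. Each genotype gave polysomal, monosomal and total RNA, with 3 arrays for each combination, 18 together. Seeds of 8 plants were pooled for a replicate, in a randomized block layout, and the labels list no treatment of the seeds. ABCI20 belongs to the ABC transporter superfamily. The labels do not give the kind of mutation or the number of alleles. Polysomal RNA is RNA in the fraction of several ribosomes, and monosomal RNA is RNA in the fraction of single ribosomes. Total RNA is the unfractionated extract. Whether mitochondrial RNA in these fractions was bound by ribosomes, and by which ones, was not tested. A fall against total RNA is therefore not a measure of translation.

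Plant mitochondria keep a small genome that encodes subunits of the respiratory chain, ribosomal proteins and factors for the maturation of cytochrome c. Between these genes lie open reading frames that were predicted from the sequence, many without a known product. Mitochondrial RNA is made by phage-type polymerases encoded in the nucleus, is edited, spliced and trimmed by nuclear-encoded proteins, and is translated by ribosomes inside the organelle. Transcription in these genomes runs well beyond the known genes, and much of the extra RNA is degraded. In dry seeds mitochondria are simple in structure and become fully active after imbibition. A copy of much of the mitochondrial genome is inserted in chromosome 2 of Col-0, so a mitochondrial probe set can have a nuclear match.

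ABCI20 read between 1.10 and 2.40 on the log2 scale in the abci20 arrays and between 3.80 and 5.09 in the Col-0 arrays, with no overlap in any fraction (log2 change -2.32 in polysomal, -2.40 in monosomal and -2.31 in total RNA). The 8 seed maturation markers lay between 9.56 and 12.38 in all arrays. Of the markers of other organs, leaf RBCS1A read 6.49 to 7.21, while the other 3 leaf, 2 root and 2 pollen genes stayed between 0.72 and 4.43. Replicates correlated at 0.893 to 0.987 over all probe sets. abci20 total replicate 1 had the 2 lowest values, 0.893 and 0.915 with its partners, which correlated at 0.959 with each other. Signals are robust multi-array average (RMA) values on the log2 scale, so differences between arrays are log2 changes, and the level of one probe set is not ranked against that of another. In bulk seeds, fewer cells of a type and less RNA per cell cannot be told apart.

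The open reading frames were lower in the ribosome fractions than in total RNA. The median signal of the 41 was 5.79, 5.54 and 5.46 in the abci20 polysomal arrays and 6.09, 6.15 and 5.99 in the Col-0 polysomal arrays. In monosomal RNA it was 5.86, 5.32 and 5.61 in abci20 and 5.89, 5.86 and 6.003 in Col-0. In total RNA it was 6.90, 8.48 and 8.82 in abci20 and 8.16, 8.02 and 7.44 in Col-0. Each total RNA array thus had a higher median than each of the 12 arrays of ribosome fractions. The mean of the array medians was 5.60 ± 0.168 and 6.07 ± 0.0823 in polysomal RNA of abci20 and Col-0, 5.60 ± 0.270 and 5.92 ± 0.0734 in their monosomal RNA, and 8.07 ± 1.02 and 7.87 ± 0.381 in their total RNA (SD, n = 3 each). The abci20 total arrays were the most spread, because replicate 1 lay well below the other 2.

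**Figure D1:**
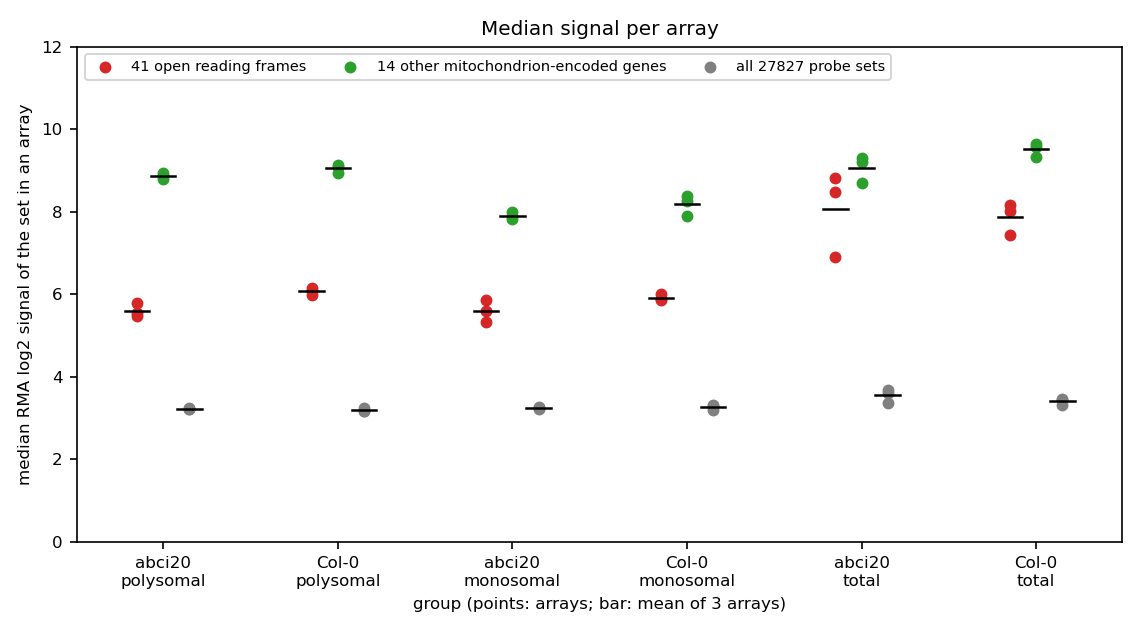
Median RMA log2 signal in each array (points) with the mean of the 3 arrays (bars), for the 41 open reading frames, the 14 other mitochondrion-encoded genes without identical values and all 27827 probe sets. The red points of the polysomal and monosomal arrays lie between 5.32 and 6.15 and those of total RNA between 6.90 and 8.82.

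Members differed in how far their own signal moved over the 18 arrays. ATMG01200 was the steadiest member, between 10.68 and 11.58. ATMG01320, between 9.54 and 10.93, ATMG01090 and ATMG00040 also belonged to the members of small spread. ATMG00860, ATMG00820, ATMG00840, ATMG00550, ATMG00450 and ATMG00740 had the largest spread over the arrays. RMA signals near background are compressed, and the files used here hold no detection calls, so a change into that range may be understated.

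**Figure D2:**
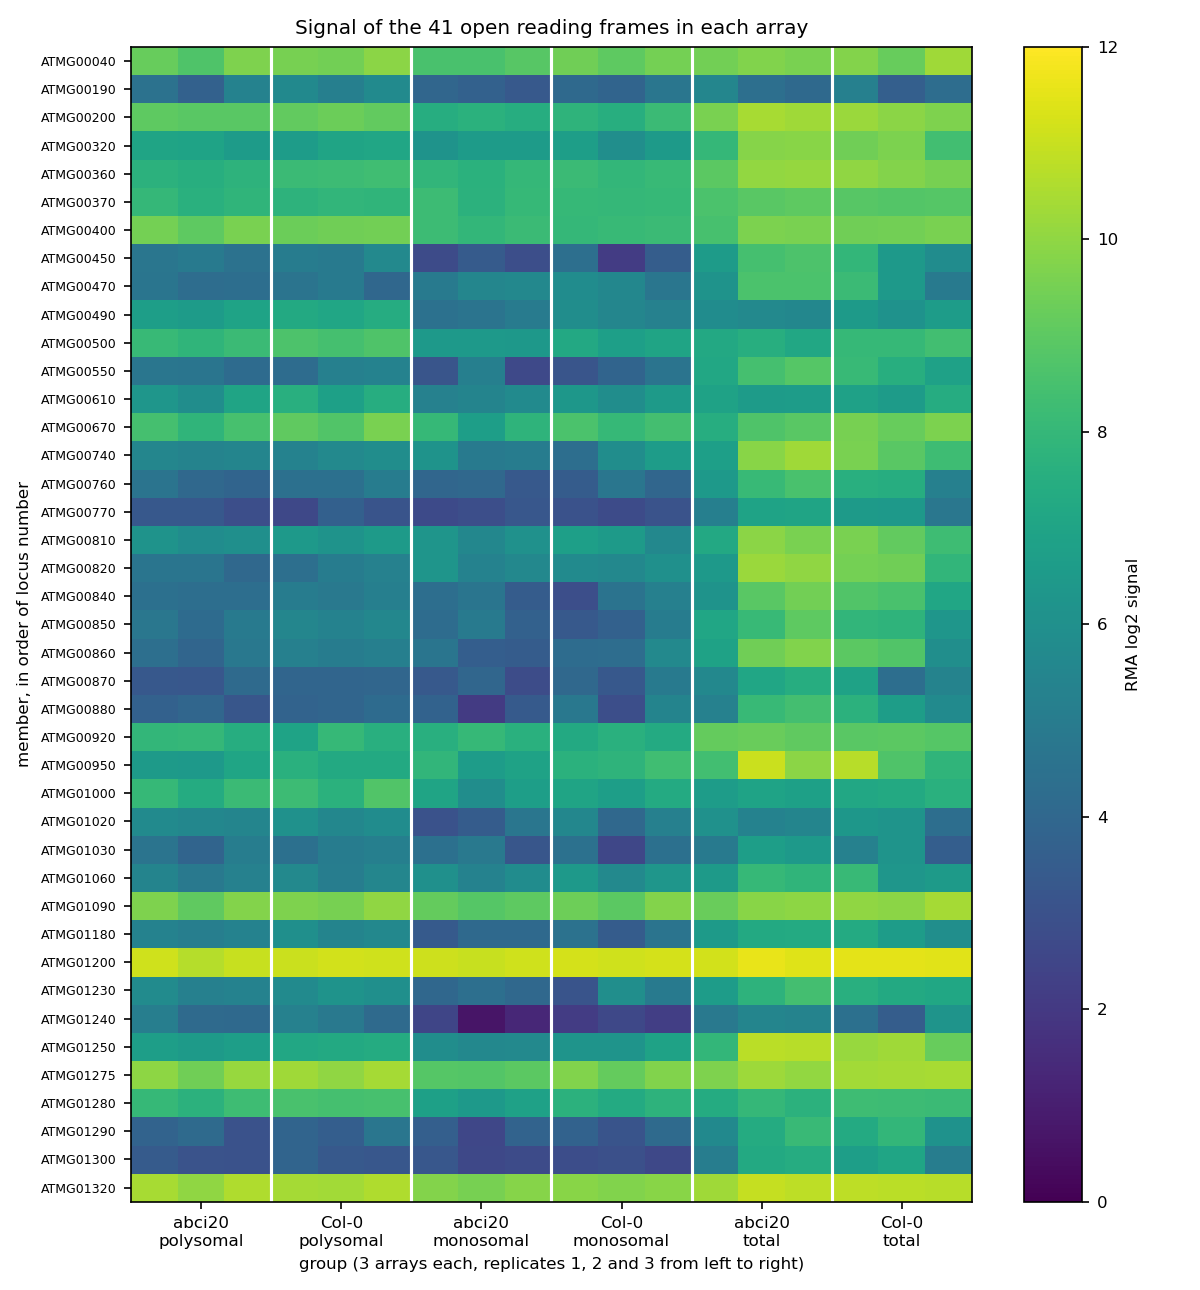
RMA log2 signal (colour) of each of the 41 open reading frames (rows, in order of locus number) in each of the 18 arrays (columns, replicates 1 to 3 within each group). ATMG01200 stays between 10.68 and 11.58 across the row, while ATMG00820 runs from 4.05 in a polysomal array to 10.18 in a total RNA array.

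Against total RNA, most open reading frames were lower in polysomal RNA. In abci20, 25 fell and 3 rose at an adjusted p under 0.05, beside 22.1% of all probe sets called in either direction (11.9% higher and 10.2% lower). In Col-0, 18 fell and 1 rose, beside 7.13% of all probe sets (4.06% higher and 3.07% lower). The median change of the 41 was -2.06 in abci20 and -1.40 in Col-0, while over all probe sets it was 0.02 and 0.01. The same 18 members fell in both genotypes, as did 2.3% of all probe sets. Tests were moderated tests of limma with Benjamini-Hochberg adjustment over all probe sets. Centring each array on its median raised the median of all probe sets by 0.32 in abci20 and by 0.21 in Col-0 and again gave 25 and 18 lower members. The Col-0 count moved when single arrays were left out: it was 10, 12 and 12 without polysomal replicate 1, 2 or 3, and 11 and 12 without total replicate 1 or 2. The share of all probe sets in these alternative fits is not given here. A loss particular to the members can therefore not be read from these counts.

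ATMG00820 showed the largest decrease. It read 4.65, 4.66 and 4.05 in abci20 polysomal RNA, against 6.44, 10.18 and 10.02 in abci20 total RNA. The Col-0 values were 4.39, 5.05 and 5.26 in polysomal RNA, against 9.48, 9.41 and 7.92 in total RNA. No polysomal array reached a total RNA array of its genotype, and the first abci20 total array stood far below its partners. The change was -4.42 ± 0.691 in abci20 (21.5-fold lower, adjusted p = 0.000888) and -4.04 ± 0.691 in Col-0 (16.4-fold lower, adjusted p = 0.00500), where the error is the SE of the fit. This SE rests on 1 spread for all groups, so it may be too small where the total RNA arrays are spread widely.

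ATMG00860 followed in abci20. Its polysomal signals there were 4.36, 3.90 and 4.82, against 6.92, 9.39 and 9.73 in total RNA, a change of -4.32 ± 0.727 (adjusted p = 0.00133). In Col-0 it read 5.22, 5.04 and 5.20 in polysomal RNA, against 8.98, 8.73 and 5.94 in total RNA, a change of -2.73 ± 0.727 (adjusted p = 0.0330). The polysomal arrays of Col-0 agreed closely, and replicate 3 of its total RNA came within 1 log2 unit of them. ATMG00550 changed by -3.64 ± 0.569 in abci20 (adjusted p = 0.000897) and by -2.56 ± 0.569 in Col-0 (adjusted p = 0.0152). Its abci20 values were 4.71, 4.68 and 4.21 in polysomal RNA, against 7.20, 8.48 and 8.82 in total RNA. Here too the polysomal arrays were all below the total RNA arrays.

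ATMG00360 had a smaller decrease measured with little spread, and the smallest p of the 41 in both genotypes. It read 7.69, 7.50 and 7.76 in abci20 polysomal RNA, against 8.99, 10.06 and 10.10 in total RNA. In Col-0 it read 8.19, 8.23 and 8.31 in polysomal RNA, against 10.02, 9.79 and 9.53 in total RNA. These well separated groups gave -2.06 ± 0.250 (adjusted p = 0.000245) in abci20 and -1.54 ± 0.250 (adjusted p = 0.00385) in Col-0. ATMG00370, at -1.03 in abci20 and -1.001 in Col-0, fell the least of the 18 shared members and by almost the same amount in both. ATMG00920 fell by 1.36 and 1.40 on the log2 scale.

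Locus numbers follow the order of the genome, and some runs of neighbours moved together while other neighbours did not. All 10 members from ATMG00740 to ATMG00880 fell in abci20, with changes between -4.42 and -2.92, and 9 of them fell in Col-0, where the 10 lay between -4.04 and -1.61. The member of this run not past the threshold in Col-0 was ATMG00870, at -1.61 ± 0.571 (adjusted p = 0.0922). ATMG01290 and ATMG01300 fell in both genotypes, with changes of -3.41 and -3.42 in abci20 and of -3.07 and -2.79 in Col-0. Other neighbours were apart in abci20: ATMG00470 changed by -3.36 and ATMG00490 by 1.10, ATMG00950 by -3.10 and ATMG01000 by 1.06, and ATMG01280 by 0.30 and ATMG01290 by -3.41. These loci were picked out after their values were seen. Neighbouring loci can share a transcript, so they are not independent observations.

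**Figure D3:**
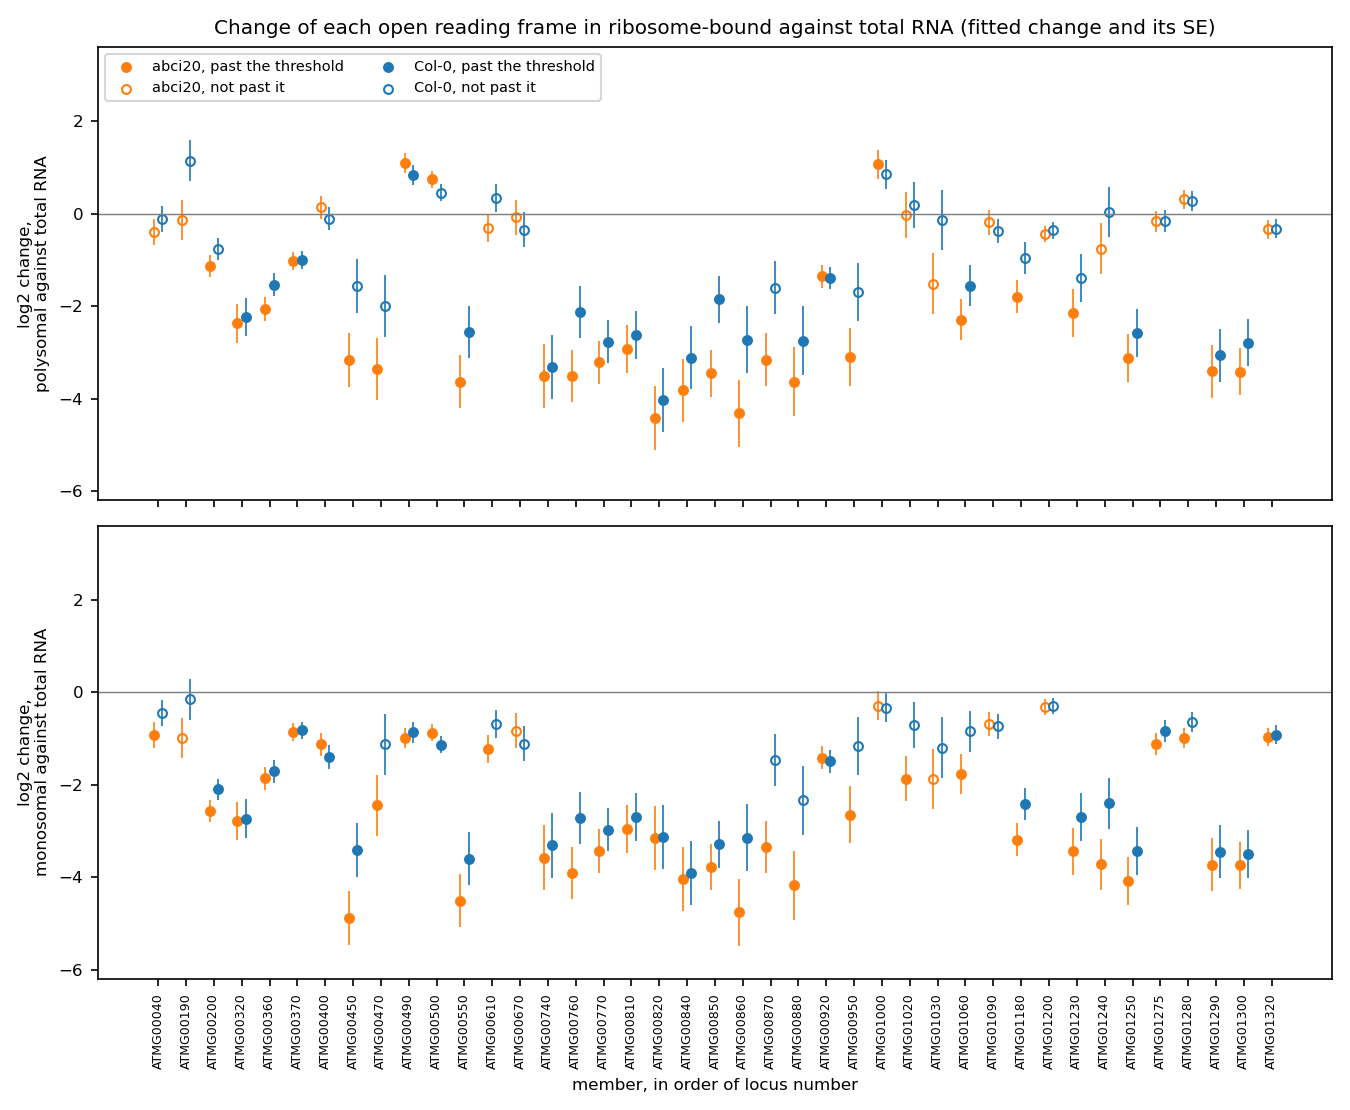
Fitted log2 change of each open reading frame against total RNA (vertical axes) with its SE, for polysomal RNA (upper panel) and monosomal RNA (lower panel), in order of locus number. Filled points passed the threshold. The upper panel shows 25 lower and 3 higher members in abci20 and 18 lower and 1 higher in Col-0, and all points of the lower panel are below 0.

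Decreases of at least 8-fold among called probe sets were rare on the array, at 0.456% of all probe sets in abci20 and 0.165% in Col-0. They included 16 of the 41 members in abci20, which is 39.0% of the members and 12.6% of the 127 probe sets on that list. In Col-0 they included 4 members, ATMG00740, ATMG00820, ATMG00840 and ATMG01290, which is 9.76% of the members and 8.70% of 46 probe sets. Of the 127 probe sets, 23 were mitochondrial loci and 14 had values equal to those of another probe set. Of the 46, these were 5 and 2. Some measurements are thus counted more than once in these lists. Over all probe sets, 10.2% were lower past the threshold in abci20, 3.07% in Col-0 and 2.3% in both. Beside the members that fell in both, a further 7 members fell past the threshold in abci20 and not in Col-0: ATMG00200, ATMG00450, ATMG00470, ATMG00870, ATMG00950, ATMG01180 and ATMG01230. Their Col-0 changes lay between -1.998 (ATMG00470) and -0.77 (ATMG00200), and the difference between the genotypes did not pass the test for any of them.

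A few members went the other way. ATMG00490 was the member that rose in both genotypes: it read 6.74, 6.60 and 6.97 in abci20 polysomal RNA, against 5.82, 5.63 and 5.56 in total RNA, a change of 1.10 ± 0.218 (adjusted p = 0.00337). In Col-0 it read 7.28, 7.09 and 7.43 in polysomal RNA, against 6.55, 6.13 and 6.62 in total RNA, a change of 0.83 ± 0.218 (adjusted p = 0.0305). Both pairs of groups were apart. Its neighbour ATMG00500 rose by 0.74 ± 0.187 in abci20 (adjusted p = 0.0117) and had 0.45 ± 0.187 in Col-0 (adjusted p = 0.148). ATMG01000 rose by 1.06 ± 0.312 in abci20 (adjusted p = 0.0234) and had 0.85 ± 0.312 in Col-0 (adjusted p = 0.103). Quantile normalization left 1 higher member in abci20 and 0 in Col-0. The remaining 13 members passed in neither genotype, among them ATMG01200 (-0.45 in abci20 and -0.36 in Col-0), ATMG01275 (-0.17 and -0.16) and ATMG01280 (0.30 and 0.27).

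The abci20 and Col-0 changes, which share no arrays, ran in parallel across the 41 members (Pearson r = 0.939, Spearman rho = 0.930), with the same sign in 36. This is a description across members of the same arrays. The other mitochondrion-encoded genes did not show the size of the decrease. Of the 14 with values of their own, 4 fell in abci20 and 4 in Col-0, with medians of -0.22 and -0.09 and lowest changes of -1.49 and -1.41. In abci20, 23 of the 41 open reading frames lay below the lowest of these 14, and in Col-0 20 did. The difference between the 2 sets was not tested.

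In monosomal RNA the decrease reached more members. In abci20, 35 of the 41 fell against total RNA and 0 rose, beside 14.7% of all probe sets called (6.58% lower). In Col-0, 26 fell and 0 rose, beside 6.65% (3.45% lower). All 41 fitted changes were below 0 in both genotypes, with medians of -2.57 in abci20 and -1.50 in Col-0, against 0.05 and 0.06 over all probe sets. The same 26 members fell in both genotypes, as did 1.96% of all probe sets. With the 6 compared arrays alone in the fit, 19 members fell in abci20. The share of all probe sets in that fit is not given here, so a loss particular to the members cannot be read from this count. Of the 14 other mitochondrion-encoded genes, 12 fell in abci20 and 8 in Col-0, with medians of -1.14 and -0.93.

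ATMG00200 had the smallest p of the 41 in both genotypes. It read 7.49, 7.65 and 7.49 in abci20 monosomal RNA, against 9.60, 10.45 and 10.30 in total RNA, a change of -2.57 ± 0.233 (adjusted p = 1.08e-05). In Col-0 it read 7.80, 7.51 and 8.20 in monosomal RNA, against 10.20, 9.93 and 9.70 in total RNA, a change of -2.11 ± 0.233 (adjusted p = 0.000129). The fractions were far apart in both genotypes. The largest decrease was that of ATMG00450 in abci20, at 2.73, 3.43 and 2.89 in monosomal RNA, against 6.58, 8.46 and 8.64 in total RNA (-4.88 ± 0.585, 29.4-fold lower, adjusted p = 8.89e-05). Its Col-0 monosomal signals of 4.39, 2.12 and 3.53 varied more, against 7.93, 6.50 and 5.85 in total RNA (-3.41 ± 0.585, adjusted p = 0.00260). Signals this low may be compressed, so the size of this change is uncertain.

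Of the other members, ATMG01180 changed by -3.19 and -2.42, and ATMG01250 by -4.09 and -3.43, in abci20 and Col-0. The polysomal and monosomal comparisons of a genotype share its total RNA arrays. The members that passed in neither genotype were ATMG00190, ATMG00670, ATMG01000, ATMG01030, ATMG01090 and ATMG01200. The changes of the genotypes correlated across the 41 members at r = 0.906, with the same sign in 41.

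Between the ribosome fractions, 34 fitted changes in abci20 and 32 in Col-0 were on the polysomal side. Polysomal RNA was above monosomal RNA for 10 members and below it for 0 in abci20, beside 10.8% of all probe sets called (7.31% higher), and likewise for 10 and 0 in Col-0, beside 12.5% (8.2% higher). The median change was 0.49 in abci20 and 0.68 in Col-0, against -0.11 and -0.13 over all probe sets. Quantile normalization raised these last medians by 0.10 and 0.12, with 9 and 8 members higher. The 14 other mitochondrion-encoded genes held 7 higher in abci20 and 6 in Col-0. The abci20 count was 6 without its polysomal replicate 1 or 3, and the Col-0 count was 6 without its polysomal replicate 1. The share of all probe sets in these alternative fits is not given here either.

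The 8 members higher in both genotypes were ATMG00200, ATMG00400, ATMG00490, ATMG00500, ATMG01000, ATMG01180, ATMG01240 and ATMG01280, while 5.18% of all probe sets met this. ATMG00490 had 4.47, 4.60 and 4.99 in abci20 monosomal RNA, all below its polysomal signals of 6.60 to 6.97, a change of 2.08 ± 0.218 (4.24-fold higher in polysomal RNA, adjusted p = 3.39e-05). In Col-0 its monosomal signals were 5.89, 5.52 and 5.27, and the change was 1.71 ± 0.218 (3.26-fold, adjusted p = 0.000142). It therefore ranked polysomal over total over monosomal RNA in both genotypes, with no overlap between any of these groups. ATMG00500 had the same order: 8.08, 7.87 and 8.20 in abci20 polysomal RNA, against 6.47, 6.44 and 6.38 in monosomal RNA (1.62 ± 0.187, adjusted p = 5.62e-05). Its Col-0 signals were 8.67, 8.45 and 8.67 in polysomal RNA, against 7.24, 6.79 and 6.999 in monosomal RNA (1.59 ± 0.187, adjusted p = 6.72e-05).

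ATMG01240 had the largest change between the ribosome fractions. It read 5.15, 4.13 and 4.12 in abci20 polysomal RNA, against 2.49, 0.67 and 1.34 in monosomal RNA (2.97 ± 0.546, adjusted p = 0.00210). In Col-0 it read 5.29, 4.86 and 4.15 in polysomal RNA, against 2.14, 2.61 and 2.24 in monosomal RNA (2.43 ± 0.546, adjusted p = 0.00790). The monosomal values were low enough that compression may touch the size of this change. ATMG00400 changed by 1.26 and 1.295, and ATMG00200 by 1.43 and 1.33, in abci20 and Col-0. ATMG00820 had the lowest change, -1.27 ± 0.691 in abci20 (adjusted p = 0.263) and -0.90 ± 0.691 in Col-0 (adjusted p = 0.403), not past the threshold though its polysomal arrays were below the monosomal arrays in both genotypes.

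Between genotypes, single members rarely passed. In polysomal RNA 0 of the 41 passed, beside 0.442% of all probe sets (0.208% lower), and 7 had an unadjusted p under 0.05, as did 7.95% of all probe sets. The SE rests on 1 spread for all groups, and the members spread most widely in total RNA. It may therefore be too large for them in polysomal and monosomal RNA. In monosomal RNA 2 were lower in abci20, beside 1.83% of all probe sets (0.744% lower). In total RNA 1 was lower, beside 3.35% (2.24% lower). The direction of the fitted values differed by fraction: in polysomal RNA 39 of 41 were below 0 (median -0.39, against -0.01 over all probe sets), in monosomal RNA 35 (median -0.34, against -0.03), and in total RNA 18 (median 0.06, against 0.01). The total RNA median was -0.08 after centring each array and ran from -0.11 to 0.69 when single total RNA arrays were left out. The monosomal median was -0.55 without Col-0 monosomal replicate 2. The polysomal and monosomal values use separate arrays and had the same sign in 35 members (r = 0.426 across the 41). The array medians of the 14 other mitochondrion-encoded genes were also lower in abci20. Their means were 8.87 against 9.06 in Col-0 in polysomal RNA, 7.91 against 8.18 in monosomal RNA and 9.07 against 9.52 in total RNA. A lower abci20 signal in the ribosome fractions was thus not particular to the open reading frames.

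**Figure D4:**
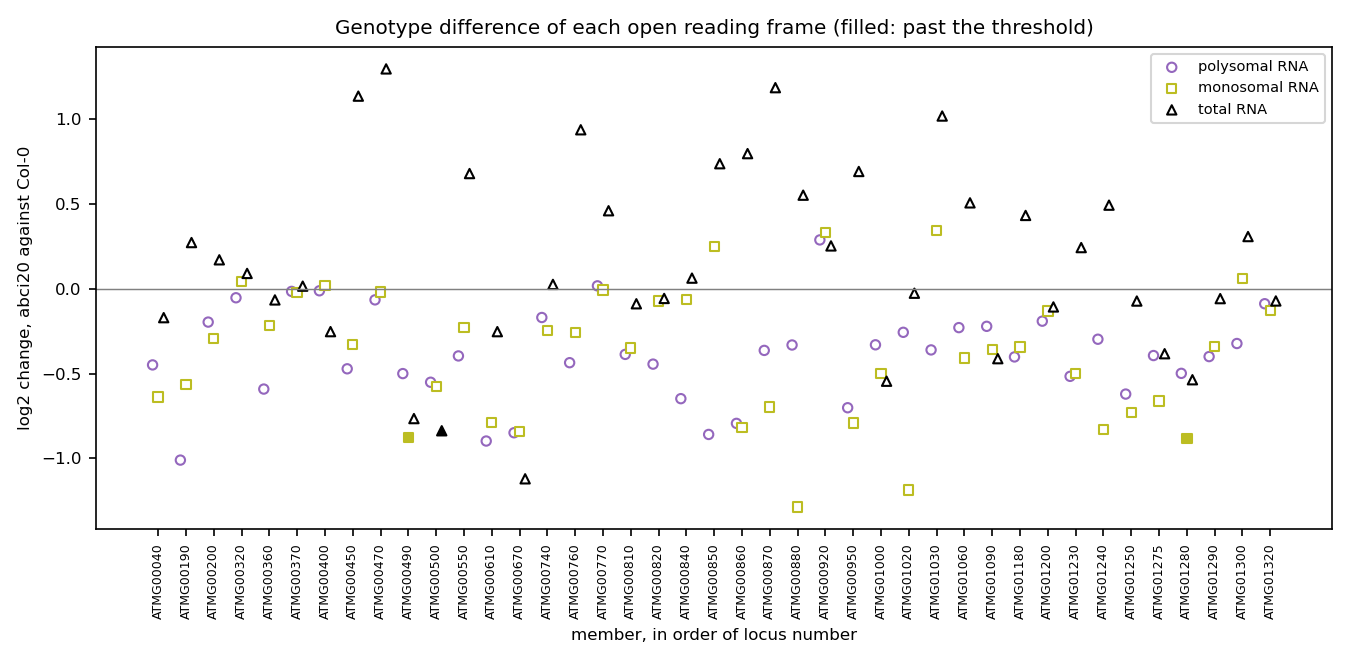
Fitted log2 change of abci20 against Col-0 (vertical axis) for each open reading frame in polysomal, monosomal and total RNA, in order of locus number. The 3 filled symbols passed the threshold, ATMG00490 and ATMG01280 in monosomal and ATMG00500 in total RNA, and 39 of the 41 polysomal points are below 0.

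The 3 members past the threshold had SEs of 0.187 to 0.218, against a median SE of 0.469 over the 41. ATMG00490 read 4.47, 4.60 and 4.99 in abci20 monosomal RNA, against 5.89, 5.52 and 5.27 in Col-0 (-0.88 ± 0.218, adjusted p = 0.0487). ATMG01280 read 6.83, 6.46 and 6.86 in abci20 monosomal RNA, against 7.73, 7.33 and 7.74 in Col-0 (-0.88 ± 0.213, adjusted p = 0.0421). ATMG00500 read 7.25, 7.50 and 7.18 in abci20 total RNA, against 8.06, 8.02 and 8.37 in Col-0 (-0.84 ± 0.187, adjusted p = 0.0205). The groups did not overlap in these 3 cases. Each call was close to the threshold. Leaving out single arrays of the comparison gave adjusted p-values up to 0.202 for ATMG00490, 0.197 for ATMG01280 and 0.103 for ATMG00500. When the fit was limited to the 6 arrays of the comparison, none of the 3 passed (adjusted p = 0.213, 0.183 and 0.349).

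These loci were lower in abci20 in the other fractions as well, by values that did not pass. In polysomal RNA the changes were -0.50 ± 0.218 for ATMG00490, -0.55 ± 0.187 for ATMG00500 and -0.50 ± 0.213 for ATMG01280. Including ATMG00670, which read 8.44, 7.87 and 8.53 in abci20 polysomal RNA against 9.08, 8.73 and 9.58 in Col-0, 4 members had abci20 below Col-0 without overlap in all 3 fractions, and 0 had the opposite. Over all probe sets 2.67% had the first order and 1.56% the second. Fraction by fraction, abci20 was below Col-0 without overlap for 13 members in polysomal RNA (11% of all probe sets), 8 in monosomal RNA (10.3%) and 6 in total RNA (10%). abci20 was above without overlap for 0, 0 and 1 member, ATMG00920, beside 10.3%, 9.52% and 6.76%. The polysomal count stood furthest above its background share and the total RNA count closest to it.

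Other members had the lowest p-values without passing. ATMG00610 read 6.32, 5.87 and 6.99 in abci20 polysomal RNA, against 7.58, 6.83 and 7.46 in Col-0 (-0.90 ± 0.304, adjusted p = 0.317). In these groups the highest abci20 array overlapped the lowest Col-0 array. ATMG00470 had the highest total RNA change, with 6.18, 8.58 and 8.62 in abci20 against 8.16, 6.45 and 4.88 in Col-0 (1.297 ± 0.662, adjusted p = 0.332). Its groups overlapped because the first abci20 array was low and the Col-0 arrays were spread over more than 3 log2 units.

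The fall in polysomal against total RNA did not differ between genotypes past the threshold: 0 members were called, and 0% of all probe sets. At an unadjusted p under 0.05 the genotype difference counted 1 member for polysomal against total, 0 for polysomal against monosomal and 1 for monosomal against total RNA, beside 4.54%, 2.67% and 8.16% of all probe sets. The fitted differences, abci20 minus Col-0, were below 0 for 33, 21 and 35 members, with medians of -0.44, -0.01 and -0.46. Leaving out single arrays gave medians from -1.03 to -0.20 for polysomal against total and from -0.98 to -0.19 for monosomal against total RNA, with both lowest values without abci20 total replicate 1. ATMG00850 had the smallest p for polysomal against total RNA (-1.60 ± 0.717, adjusted p = 0.999) and ATMG00870 for monosomal against total RNA (-1.88 ± 0.807, adjusted p = 0.585). The median SE of such a difference was 0.663 log2 units, and even fitted differences of -1.60 and -1.88 did not pass. Differences well above that SE are therefore not resolved here.

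The values in total RNA depended on the array more than those in the ribosome fractions. The median SD of a member over its 3 arrays was 0.290 in abci20 and 0.249 in Col-0 polysomal RNA, 0.345 and 0.397 in monosomal RNA, and 0.831 and 0.657 in total RNA, where all probe sets had 0.411 and 0.293. abci20 total replicate 1 was the lowest of its 3 arrays for 35 of the 41 members, while 32.8% of all probe sets were lowest in it, and for 12 of the 14 other mitochondrion-encoded genes. Its median member lay 1.43 below the mean of the other 2 arrays (0.54 for the 14 genes, and 0.12 above for all probe sets). The gap was widest for ATMG00820 at -3.67, and ATMG00190 lay 1.24 above. Col-0 total replicate 3 was lowest for 27 members, against 30.7% of all probe sets, with a median gap of -0.64 and the widest gap, -2.91, for ATMG00860, while ATMG01240 lay 2.21 above. Of the 14 other genes 4 were lowest in this array, and their median gap was 0.03.

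The gaps of these total RNA arrays ran in parallel with the polysomal change of the other genotype, with exceptions. These arrays were picked after the values of the members were seen, and the gaps of the other total RNA arrays were not compared in this way. Across the 41, the gap of abci20 total replicate 1 correlated with the Col-0 change in polysomal against total RNA at r = 0.888 (rho = 0.888), and the gap of Col-0 total replicate 3 with the abci20 change at r = 0.729 (rho = 0.733). Among the exceptions, ATMG01020 had a gap of -1.93 in Col-0 total replicate 3 and an abci20 change of -0.04, and ATMG01030 a gap of -1.71 in abci20 total replicate 1 and a Col-0 change of -0.14. The compared values share no arrays within each pair, and the members share arrays, RNA and scaling. For the 14 other genes the values were -0.253 and -0.314, and across all 27827 probe sets 0.488 and 0.318. Without abci20 total replicate 1, 28 members were lower in polysomal RNA of abci20 (25 with it), beside 15.1% of all probe sets, and 38 in monosomal RNA (35 with it), beside 13.1%. Without Col-0 total replicate 3, 21 members were lower in polysomal RNA of Col-0 (18 with it), beside 3.4%, and 23 in monosomal RNA (26 with it), beside 2.68%. Without abci20 total replicate 1 the genotype difference of polysomal against total RNA had 18 members at an unadjusted p under 0.05, beside 12% of all probe sets, and 0 past the adjusted threshold, beside 0.101%.

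**Figure D5:**
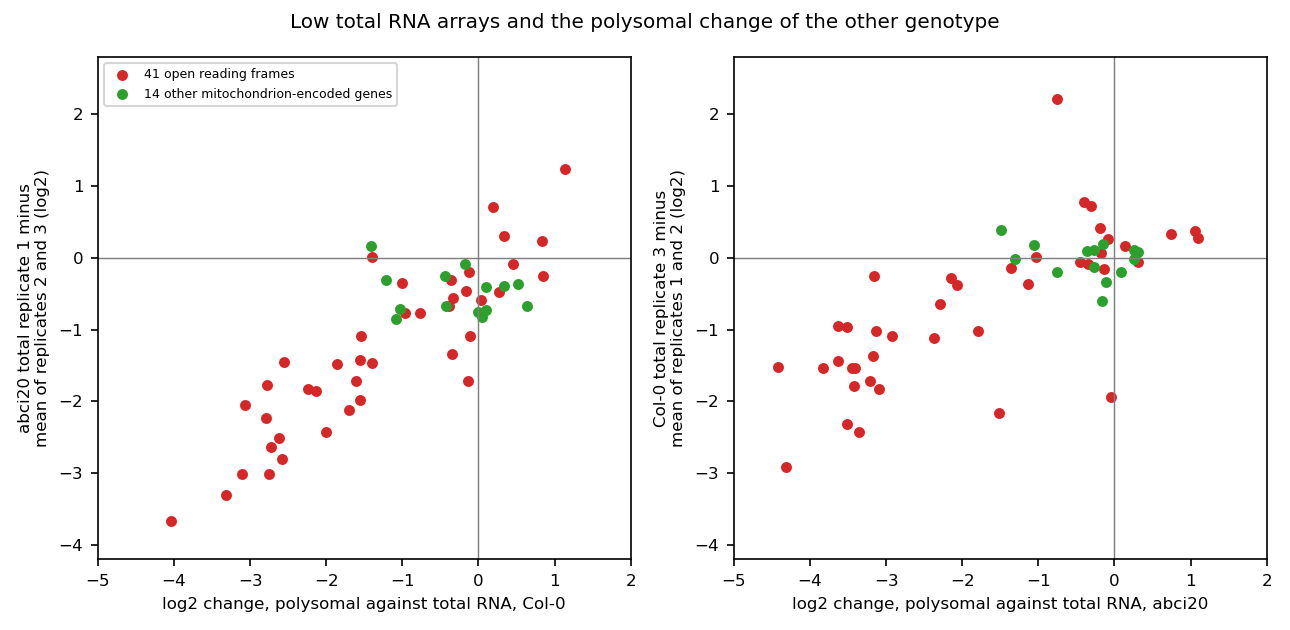
Gap of a total RNA array to the mean of its 2 partners (vertical axes, log2) against the change in polysomal against total RNA of the other genotype (horizontal axes, log2). The left panel shows abci20 total replicate 1 and the right panel Col-0 total replicate 3, for the 41 open reading frames (r = 0.888 and 0.729) and the 14 other mitochondrion-encoded genes.

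Nuclear genes that act on mitochondrial DNA and RNA were measured through 28 listed genes whose symbols matched the reference table. In polysomal against total RNA, 9 were higher and 2 lower in abci20, beside 11.9% and 10.2% of all probe sets. In Col-0, 2 were higher and 0 lower, beside 4.06% and 3.07%. The medians were 0.52 and 0.13. In polysomal against monosomal RNA, 8 were higher and 0 lower in each genotype. Of all probe sets, 7.31% were higher in abci20 and 8.2% in Col-0. The genes named here were chosen after their values were seen. TRZ4, a mitochondrial enzyme that trims tRNA ends, rose by 1.296 ± 0.263 in abci20 (adjusted p = 0.00378) and by 1.42 ± 0.263 in Col-0 (adjusted p = 0.00700). RPF2, a pentatricopeptide repeat protein that acts in the trimming of mitochondrial transcript ends, changed by -2.09 ± 0.476 in abci20 (adjusted p = 0.00669) and by -1.24 ± 0.476 in Col-0 (adjusted p = 0.1197). Close relatives of RPF2 may share its probes. In monosomal against total RNA, 2 were higher and 6 lower in abci20, and 0 higher and 2 lower in Col-0. Of all probe sets, 14.7% were called in abci20 (6.58% lower) and 6.65% in Col-0 (3.45% lower). Between genotypes, SHOT1, a mitochondrial mTERF-family protein, was lower in abci20 in monosomal RNA (-1.22, adjusted p = 0.0351) and in total RNA (-1.08, adjusted p = 0.0450). Of all probe sets, 0.744% and 2.24% were lower in these comparisons. In polysomal RNA 0 of the 28 passed, beside 0.442% of all probe sets. There 2 of the 28 had an unadjusted p under 0.05, beside 7.95%. Most calls of this list in polysomal against total RNA were higher and most calls of the open reading frames lower, while in polysomal against monosomal RNA the calls of both were all higher; the difference between the lists was not tested.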

How the data were processed

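Seed RNA was measured on 18 arrays, 3 for each combination of genotype and fraction. The authors' summary method was RMA, per the submitters' processing notes. The deposited values are log2 signals that run from 0.301 to 12.71. Per the labels' protocols, RNA was cleaned on RNeasy columns and labelled with a 3-prime one-cycle kit. The RMA version, and whether the arrays were processed together, are not given in the sources used here. The arrays' number limits the precision.

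R 4.3.3 and limma 3.58.1 were used to fit all 18 arrays. The model had 1 coefficient per group, 12 residual degrees of freedom, two-sided moderated tests and Benjamini-Hochberg adjustment at 0.05 over all 27827 probe sets of each of 12 comparisons. No filter on signal was used. Each probe set had 1 spread for all groups. The median SD of a member was 0.831 and 0.657 in total RNA of abci20 and Col-0, above that in the ribosome fractions. SEs and p-values of members against total RNA may therefore be too small. Those between the ribosome fractions, and between genotypes within a ribosome fraction, may be too large. Comparisons within a genotype share their total, polysomal or monosomal arrays, and the 3 fraction comparisons are therefore not independent. The fit was tested on simulated data with the same spread in all groups of a probe set. That test therefore does not cover the wider spread of the members in total RNA. Python 3.11.15 with matplotlib 3.10.9 drew the figures, and statmod 1.5.0 served the robust alternative.

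The members, lists and rules were chosen with earlier results of these data known. Named members, 36 of 41, were the 6 with the smallest p of each comparison and the 6 highest and 6 lowest in mean and in SD over the arrays, and others are named within groups of calls. Of 34 listed nuclear genes, 6 were not used, since their symbol is not the reference table's. Arrays of the same replicate number were compared in 27 pairs: 7 of the correlations of deviations exceeded 0.1, and they ran from -0.166 to 0.245, so the numbers were not taken as pairs. Alternatives were a replicate block, only the compared groups, quantile normalization, centring, brighter probe sets, a variance trend with robust estimation, identical twins kept once each, and leaving out single arrays. Leaving out both low total RNA arrays was chosen after seeing the data.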

Additional observations from a re-analysis of the deposited data

How the results depend on the processing

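For the 8 comparisons with at least 1 call, the count of members past the threshold was recomputed 117 times over all alternatives, and 83 of these values stayed within 1.5 times. The share of all probe sets under the same alternative is not set beside most such counts, here or above. They therefore do not show whether the whole array moved as well. Of 193 recomputed medians over the 12 comparisons, 11 moved by more than the spread between arrays. No named member that passed changed direction, while the median of the 41 in total RNA between genotypes was -0.08 after centring, against 0.06. For the 2 lower members in monosomal RNA, fitting only the compared groups gave 0, quantile normalization 1 and centring 0, and leaving out single arrays gave 0 to 2. For the 1 lower member in total RNA, fitting only the compared groups, quantile normalization and leaving out both low total RNA arrays gave 0 each, while centring, brighter probe sets and the variance trend gave 2 each, and leaving out single arrays gave 0 to 3. Polysomal RNA and the 3 genotype differences gave 0 throughout. With identical twins kept once each, polysomal against total RNA gave 47 calls in abci20 (28 without them) and 34 in Col-0 (19), monosomal against total RNA 58 (35) and 46 (26), and polysomal against monosomal RNA 16 in Col-0 (10). This alternative has more members by construction. Monosomal against total RNA in abci20 gave 19 when only its groups were fitted. Polysomal against monosomal RNA in Col-0 gave 17 without both low total RNA arrays. Leaving out single arrays gave 26 to 31 and 10 to 23 calls for polysomal against total RNA in abci20 and Col-0, 6 to 14 and 6 to 15 for polysomal against monosomal RNA, and 31 to 38 and 22 to 29 for monosomal against total RNA. Apart from the added twins, the cause of these moves was not tested. Of the 39 named results that passed, 3 lost the call, the 3 between genotypes. The replicate block gave 0, 2 and 1 calls between genotypes in polysomal, monosomal and total RNA, and 28 and 19, 11 and 10, 35 and 26 for the fraction comparisons, so it changed no count by more than 1.

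The limits are 3 arrays per group, signals without detection calls and compression near background. A change that misses the threshold does not show equal levels. The share of a nuclear copy in the signals of the 41 was not tested, nor how a 3-prime kit reflects mitochondrial RNA. Whether the ribosome fractions held ribosomes of the mitochondria was not tested either.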
